A study of Homo sapiens with 3 samples.

Results

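The NF-kB genes described here are 10 genes of the deposited expression table: the transcription factor subunits NFKB1, NFKB2 and RELB, the feedback regulators NFKBIA, TNFAIP3 and BIRC3, and the inflammatory targets CXCL8, CXCL1, IL6 and PTGS2. They were chosen by gene symbol, and all 10 were found among the 58735 genes of the table. The libraries were labelled HGC-27, the name of a long-established line of human gastric cancer cells, grown in medium with fetal bovine serum and antibiotics. There was 1 library with a control hairpin (shControl, genotype given as WT) and there were 2 with a hairpin against the deubiquitinase USP16 (shUSP16-1 and shUSP16-2, genotype given as shUSP16). A protocol text shared by all 3 libraries also names dexamethasone, isobutylmethylxanthine and insulin; whether these cells received them is unclear. The labels do not say whether the shUSP16 numbers mark different hairpins or repeats, nor whether each library had a culture of its own. The p-values therefore reflect library-to-library spread, which may be technical. In most fits they rest more on spread pooled over all genes than on a gene's own, as only the 2 shUSP16 libraries repeat a group.

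NF-kB is a family of dimeric transcription factors that wait in the cytoplasm, bound by inhibitors of the IkB type. Cytokines, microbial products and some developmental ligands activate a kinase complex that marks the inhibitor for ubiquitination and destruction. The dimers then enter the nucleus and switch on cytokines, survival genes and their own inhibitors, which closes a feedback loop. In the stomach the pathway is best known for the inflammatory response of the epithelium to Helicobacter pylori, in which CXCL8 is a main neutrophil attractant.

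The promoters are shown first, because genes that share a match to the NF-kB consensus were here found at very different levels. The consensus allows some variation, and the matched letters differ between the genes shown. RefSeq promoter windows on GRCh38.p14, each with 250 bases before and 50 after a start, matched 9 of the 10 genes by symbol, in 12 windows; RELB had no entry. The 10-letter NF-kB consensus was searched on both strands, and so was the AP-1 motif TGANTCA, whose reverse complement has the same form. The NF-kB consensus was in at least 1 window of 7 of the 9 genes, against 7.09% of 27305 genes in the whole table of windows. The AP-1 motif was in 1 of the 9, against 9.37% of genes. In the lines below the capitals mark the matched motif, each line reads 5′ to 3′ on the gene's strand, and only bases before the RefSeq start are shown.
NFKB2: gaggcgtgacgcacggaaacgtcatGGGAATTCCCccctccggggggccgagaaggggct
NFKBIA: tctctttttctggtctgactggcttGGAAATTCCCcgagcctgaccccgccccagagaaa
TNFAIP3: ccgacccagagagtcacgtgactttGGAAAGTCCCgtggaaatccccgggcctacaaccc
BIRC3 (upstream site): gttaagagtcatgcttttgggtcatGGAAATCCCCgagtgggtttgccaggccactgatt
BIRC3 (downstream site): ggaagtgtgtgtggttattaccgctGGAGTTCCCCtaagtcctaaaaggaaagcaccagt
CXCL1: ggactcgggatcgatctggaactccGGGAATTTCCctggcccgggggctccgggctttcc
IL6: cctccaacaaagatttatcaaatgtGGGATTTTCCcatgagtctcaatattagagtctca
CXCL8 (AP-1): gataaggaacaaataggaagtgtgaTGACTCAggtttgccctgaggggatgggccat

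These stretches lie at chr10:102394446-102394505 (plus strand) for NFKB2 (the second of its 3 starts), chr14:35404796-35404855 (minus strand) for NFKBIA and chr6:137867167-137867226 (plus strand) for TNFAIP3. Those of BIRC3 lie at chr11:102317260-102317319 and chr11:102317324-102317383 (plus strand). CXCL1 is at chr4:73869289-73869348, IL6 at chr7:22727102-22727161 and CXCL8 at chr4:73740407-73740463, all on the plus strand. The NFKBIA match starts 81 bases before the RefSeq start, that of IL6 73 and that of CXCL1 79. In TNFAIP3 a further match lies 12 bases downstream of the first, at 55 bases before the start. CXCL1 holds its match in both orientations, shifted by 1 base. No match was found in the window of PTGS2, and in CXCL8 only the AP-1 motif; this says only that these letters are not in these windows. A match is a string of letters, and binding was not measured.

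**Figure D1:**
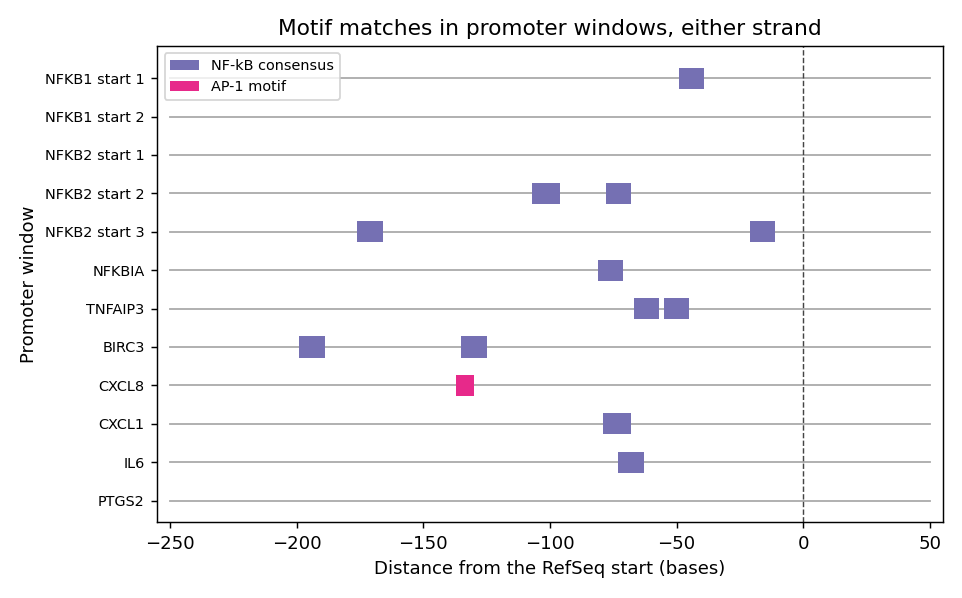
Motif matches in the 12 promoter windows of 9 NF-kB genes, by distance from the RefSeq start in bases (x axis); boxes are matches on either strand, and overlapping matches are drawn on top of each other. NFKB2 has 3 annotated starts and NFKB1 has 2, and 7 genes hold at least 1 NF-kB consensus match.

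Across the libraries the genes spanned the whole range from well expressed to silent. Levels are in FPKM, fragments scaled to gene length and to library depth, so that genes can be compared with each other. NFKB2 stood highest, above 90.1% of the table's protein-coding genes, with NFKBIA and NFKB1 next. PTGS2, TNFAIP3, RELB and BIRC3 followed. PTGS2 stood above the other genes of this run in every library, and TNFAIP3 above BIRC3. RELB changed places with TNFAIP3 and with BIRC3 between libraries, so its place beside them is not resolved. IL6 was barely detected. CXCL8 and CXCL1 had no read in any library, as did 17.0% of the 19951 protein-coding genes.

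**Figure D2:**
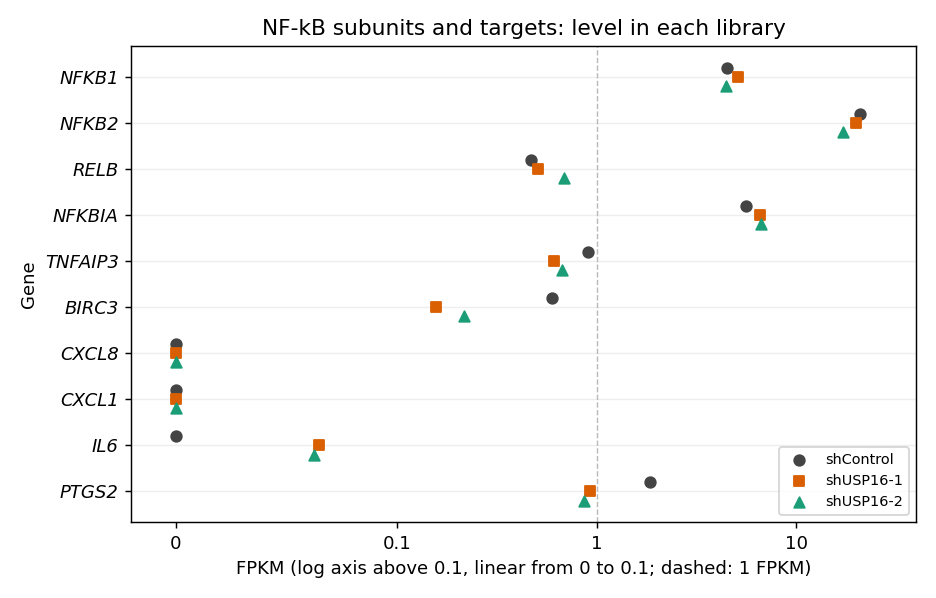
Level of each of the 10 genes in each library in FPKM (x axis, logarithmic above 0.1 and linear from 0 to 0.1; points are single libraries). NFKB2 lies between 17.1 and 20.9 FPKM, CXCL8 and CXCL1 at 0 in all 3 libraries, and the shControl point of BIRC3 and PTGS2 stands to the right of both libraries labelled shUSP16.

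The 3 libraries held 29530581 to 31187845 whole reads, recovered from the FPKM values. The total implied by the FPKM values was 1.08 times the sum of reads in shControl, 1.01 times in shUSP16-1 and 0.994 times in shUSP16-2, so ratios to shControl are lower when sums of reads serve as totals. USP16 itself was at 6.28 FPKM (shControl), 4.29 (shUSP16-1) and 5.98 (shUSP16-2), and each direction below rests on the labels. For shUSP16-2 the ratio of USP16 reads to shControl was 0.952 (exact binomial 95% interval 0.875 to 1.04) with the authors' totals and 0.876 (0.805 to 0.953) with sums of reads. The 7 epithelial markers summed to 4.19 FPKM for shControl, 3.83 for shUSP16-1 and 2.63 for shUSP16-2. MUC1 made up most of that and was the only one with a mean of 1 FPKM or more, CLDN4, EPCAM and KRT8 were lower, KRT18 and CDH1 had at most 2 reads in a library, and KRT19 had none. Of 8 leukocyte markers, 3 were at 0 throughout, PTPRC, CD3E and LYZ, and the list summed to between 1.03 and 1.43 FPKM. Of the 6 fibroblast markers, 5 averaged 1 FPKM or more, all of them matrix genes, while the receptor gene PDGFRB did not. Their sum was 291 FPKM in shControl, 283 in shUSP16-1 and 389 in shUSP16-2, far above that of the epithelial markers. The identity of the line as gastric cancer rests on its name. These marker levels do not show an epithelial profile that would bear the name out, and identity was not tested further. The part of the matrix genes in the results below was not tested either. Across 13852 genes averaging 1 FPKM or more, limma on log2(FPKM + 1) called 0 at an adjusted p under 0.05, which is 0.0% of them, and 14.5% had an unadjusted p under 0.05.

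Among the subunits, NFKB2 carried most of the message and none was called different. NFKB2 (ENSG00000077150, chromosome 10, 102394110 to 102402529, plus strand) encodes p100, the precursor of p52 in the non-canonical branch. It was at 20.9 FPKM for shControl, 20.0 for shUSP16-1 and 17.1 for shUSP16-2. shControl was the highest and shUSP16-2 the lowest. Relative to shControl its reads stood at a ratio of 0.954 for shUSP16-1 (0.905 to 1.00) and 0.816 for shUSP16-2 (0.773 to 0.861). The bounds given with each ratio are exact binomial 95% intervals and cover counting error only. With sums of reads as totals both intervals lay below 1, at 0.893 (0.848 to 0.941) and 0.751 (0.711 to 0.792). limma gave a log2 difference of -0.17 with an SE of 0.14 (adjusted p = 0.601).

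NFKB1 (ENSG00000109320, chromosome 4, 102501329 to 102617302, plus strand) encodes p105, the precursor of p50 in the canonical dimer. Its level was 4.49 FPKM for shControl, 5.10 for shUSP16-1 and 4.43 for shUSP16-2. The libraries labelled shUSP16 lay on either side of shControl. Ratios of reads to shControl were 1.13 (1.04 to 1.24) for shUSP16-1 and 0.986 (0.897 to 1.08) for shUSP16-2. With sums of reads as totals they were 1.06 (0.970 to 1.16) and 0.907 (0.825 to 0.997). The ratio of shUSP16-2 to shUSP16-1 was 0.869 (0.791 to 0.954) with the authors' totals, so these libraries differed beyond counting error. The log2 difference was 0.07 (SE 0.14, limma adjusted p = 0.850), and it took the other sign, at -0.02, when the libraries were scaled to equal sums of reads.

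RELB (ENSG00000104856, chromosome 19, 45001430 to 45038198, plus strand), the non-canonical partner of p52 and itself an NF-kB target in many cells, was low. Its reads numbered 46 for shControl, 46 for shUSP16-1 and 64 for shUSP16-2, or 0.466, 0.507 and 0.680 FPKM. The ratios to shControl, 1.09 (0.708 to 1.68) and 1.46 (0.985 to 2.18), both had intervals that held 1, so no difference was detectable at this depth. With a mean under 1 FPKM, RELB was outside the test over all genes.

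The deposited table assigns 10 genes to the Rel homology family, and the subunits outside the group described here were RELA and REL. RELA, which encodes the transactivating p65, was at 11.0 FPKM in shControl, 10.6 in shUSP16-1 and 11.2 in shUSP16-2. REL, which encodes c-Rel, was at 1.37, 1.26 and 1.32 FPKM in the same order. Neither was called (limma adjusted p = 0.927 for REL), and with the authors' totals the read intervals of both genes held 1 in each library. With sums of reads as totals RELA lay below 1 in both, at 0.904 (0.847 to 0.964) and 0.936 (0.878 to 0.997). The same held for 21.3% of the 22991 genes with at least 10 reads. REL lay below 1 only for shUSP16-1, at 0.862 (0.763 to 0.973).

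The 3 feedback regulators did not share a direction. NFKBIA (ENSG00000100906, chromosome 14, 35401511 to 35404749, minus strand) encodes IkB-alpha, the inhibitor that NF-kB induces to end its own activity. It was at 5.62 FPKM in shControl, 6.60 in shUSP16-1 and 6.65 in shUSP16-2. Both libraries labelled shUSP16 were above shControl, with a spread of 0.0338 FPKM (SD, n = 2) between them. Ratios of reads were 1.17 (1.03 to 1.34) and 1.18 (1.04 to 1.35) with the authors' totals, but 1.10 (0.963 to 1.26) and 1.09 (0.955 to 1.24) with sums of reads as totals, where both intervals held 1. limma did not call it (log2 difference 0.20, SE 0.12, adjusted p = 0.472).

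TNFAIP3 (ENSG00000118503, chromosome 6, 137867188 to 137883312, plus strand) encodes A20, a ubiquitin-editing enzyme that dampens signalling from TNF and Toll-like receptors. Its reads numbered 149 for shControl, 92 for shUSP16-1 and 105 for shUSP16-2, or 0.906, 0.610 and 0.671 FPKM. Both libraries labelled shUSP16 were below shControl, by ratios of 0.673 (0.513 to 0.878) and 0.740 (0.571 to 0.956). An antisense gene that overlaps it, AL357060.1, had 42 reads for shControl and 9 for each library labelled shUSP16. Without a stated strand setting, the reads of this pair cannot be told apart. TNFAIP3 was under the filter of 1 FPKM; in limma voom over the 22991 genes with at least 10 reads summed over the libraries it was not called (log2 difference -0.50, SE 0.35, adjusted p = 0.508).

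BIRC3 (ENSG00000023445, chromosome 11, 102317450 to 102339403, plus strand) encodes cIAP2, a ubiquitin ligase that protects cells from TNF-induced death and restrains the non-canonical branch. Only 145 reads were found for shControl, 35 for shUSP16-1 and 50 for shUSP16-2, or 0.592, 0.156 and 0.215 FPKM. shControl stood well above both libraries labelled shUSP16, which did not differ from each other beyond counting error (ratio 1.38, 0.876 to 2.19). The ratios to shControl were 0.263 (0.176 to 0.383) and 0.362 (0.257 to 0.503), the lowest of the 7 genes with at least 10 reads. limma voom over genes with at least 10 reads, a fit added after seeing the data, called BIRC3 lower (log2 difference -1.68, SE 0.42, adjusted p = 0.00782), where 1.58% of genes were called lower, 2.35% higher and 3.93% in all. With sums of reads as totals it was called too (-1.79, SE 0.45, adjusted p = 0.00536), beside 2.41% of genes called lower, 0.857% higher and 3.27% in all. Both voom p-values rest almost wholly on spread pooled over all genes, not on that of BIRC3 itself. Without a filter limma on log2(FPKM + 1), a scale that compresses such low values, gave -0.43 (adjusted p = 0.305). Its neighbour and paralog BIRC2, which encodes cIAP1, was level at 8.83 FPKM in shControl, 9.05 in shUSP16-1 and 8.89 in shUSP16-2.

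Of the inflammatory targets only PTGS2 was expressed to any extent, and it was lower in both libraries labelled shUSP16. PTGS2 (ENSG00000073756, chromosome 1, 186671791 to 186680427, minus strand) encodes cyclooxygenase-2, the inducible enzyme of prostaglandin synthesis. There were 316 reads for shControl, 145 for shUSP16-1 and 140 for shUSP16-2, or 1.84, 0.921 and 0.857 FPKM. Both libraries labelled shUSP16 lay far below shControl, and they did not differ from each other beyond counting error (ratio 0.931, 0.733 to 1.18). Ratios to shControl were 0.500 (0.408 to 0.610) and 0.465 (0.379 to 0.569).

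The 2 tests of PTGS2 gave different calls. limma on log2(FPKM + 1), a scale that compresses values this low, gave a log2 difference of -0.59 with an SE of 0.22. That did not pass (adjusted p = 0.333). limma voom on the recovered reads of the same 13852 genes called it lower (log2 difference -1.05, SE 0.27, adjusted p = 0.0471), where 1.04% of genes were called lower, 1.47% higher and 2.51% in all. With sums of reads as totals voom called it too (adjusted p = 0.0195), beside 3.02% of genes called lower, 1.0% higher and 4.02% in all. PTGS2 passed the filter of 1 FPKM only through shControl, being under it in both other libraries. The voom fit over genes with at least 10 reads, added after seeing the data, called it lower too (adjusted p = 0.0156). There 1.58% of genes were called lower and 3.93% in all. With sums of reads as totals it was again called lower (voom adjusted p = 0.00829), beside 2.41% of genes lower and 3.27% in all.

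IL6 (ENSG00000136244, chromosome 7, 22725884 to 22732002, plus strand), a cytokine of fever and the acute phase response, had 0 reads for shControl and 4 for each library labelled shUSP16. Exact intervals of the ratios began at 0.719 and 0.693, so these few reads show no difference. The protein-coding gene STEAP1B overlaps IL6 on the other strand, with 472 to 651 reads per library, so the source of the 4 reads is uncertain.

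The chemokines CXCL8 (ENSG00000169429, chromosome 4, 73740506 to 73743716, plus strand) and CXCL1 (ENSG00000163739, chromosome 4, 73869393 to 73871242, plus strand), which draw neutrophils through shared receptors, had 0 reads in every library. A count of 0 allows up to 3 reads, which corresponds to at most 0.0441 FPKM for CXCL8 and 0.0775 FPKM for CXCL1 in shUSP16-1, the library with the highest limit. CXCL2 and CXCL3 are close copies of CXCL1 that could take its reads. CXCL2 had 4 reads, all in shControl, and CXCL3 had none.

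**Figure D3:**
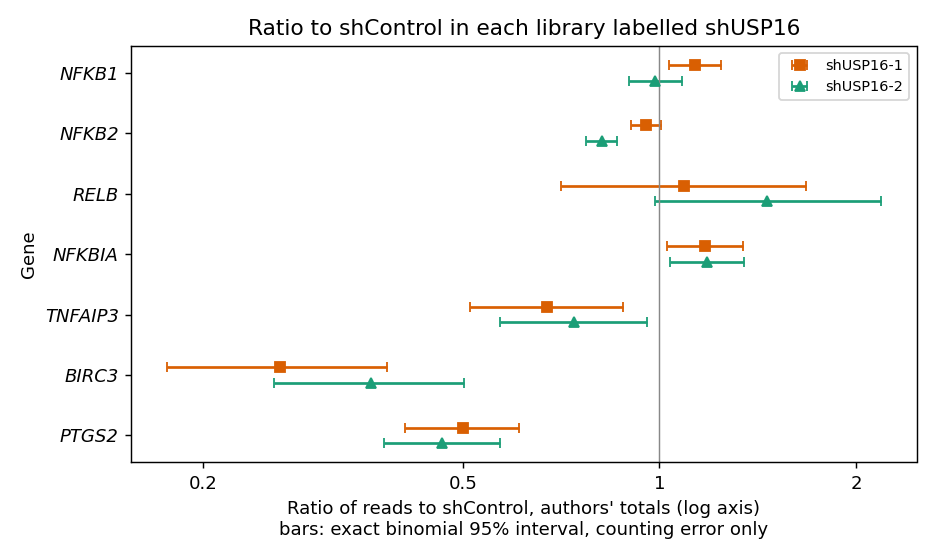
Ratio of reads to shControl with the authors' totals (x axis, logarithmic) for the 7 genes with at least 10 reads, in shUSP16-1 and shUSP16-2; bars are exact binomial 95% intervals, which cover counting error only. BIRC3, PTGS2 and TNFAIP3 lie below 1 in both libraries, from 0.263 to 0.740, while NFKBIA lies at 1.17 and 1.18.

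Counted over the group, 4 of the 10 genes passed the filter of 1 FPKM (NFKB1, NFKB2, NFKBIA and PTGS2). limma called 0 of them, beside 0.0% of all tested genes. Only 1, PTGS2, had an unadjusted limma p under 0.05, as did 14.5% of all tested genes. With the limma fit limited to protein-coding genes 0.434% of genes were called and again none of these 4. None of the 4 lay at least 2-fold below or above shControl in both libraries on the log2(FPKM + 1) scale, as 0.433% and 0.137% of tested genes did. That scale compresses low values, and the read ratios of PTGS2 to shControl were 0.500 and 0.465. On the log2(FPKM + 1) scale 2 of the 4 were lower in both libraries labelled shUSP16 and 1 was higher in both, where 32.4% and 44.9% of all tested genes did so. As PTGS2, one of the lower genes, was tested only because shControl is high, its direction is tied to the filter and the count supports nothing further. With no filter, 4 of the 8 genes with any read were lower in both and 3 higher in both, where 37.2% and 30.4% of all genes with a read did so. The median difference of the 4 tested genes was -0.05, against 0.04 over all tested genes. It was 0.04 without shUSP16-2 and -0.15 without shUSP16-1, so its sign changed with the library left out. PTGS2 is among these 4 genes, so the median too is tied to the filter and supports nothing further. Among the 7 genes with at least 10 reads, the read interval lay below 1 in both libraries for 3 and above 1 in both for 1. The same held below 1 for 14.1% and above 1 for 18.1% of the 22991 genes with that many reads. With sums of reads as totals NFKB2 joined the lower ones, making 4, and NFKBIA left the higher ones, making 0, against 21.3% and 11.2% of genes.

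Around these genes, 86 other genes of the pathway were listed in 6 groups by role, and neither limma nor voom called any of them; over all genes limma called 0.0%, and voom 2.51% to 4.02% depending on the totals and the filter. Of the 86, 49 passed the filter of 1 FPKM: 19 were lower in both libraries labelled shUSP16, 15 were higher in both and 15 lay on both sides. That is beside 32.4% lower and 44.9% higher of all tested genes, which also stand as the background of the counts by group below. Their median log2 difference was -0.01. In limma 2 of the 49, RNF31 and IER3, had an unadjusted p under 0.05, as did 14.5% of all tested genes. By group, the filter was passed by 2 of 2 subunits, 10 of 10 inhibitors and regulators, 20 of 22 kinases and adaptors, 4 of 12 receptors, 2 of 20 cytokine and chemokine targets and 11 of 20 survival and surface targets.

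The other inhibitors and regulators split, with 4 of 10 lower in both and 3 higher in both. NFKBIZ, which encodes the nuclear co-regulator IkB-zeta, was at 2.27 FPKM in shControl, 1.51 in shUSP16-1 and 1.85 in shUSP16-2. TRAF3, an adaptor that keeps the non-canonical kinase low, was at 8.72, 10.5 and 10.4 FPKM in that order. OTULIN, a deubiquitinase of linear ubiquitin chains, was at 6.31, 5.59 and 5.36 FPKM. NFKBIB, which encodes IkB-beta, was at 5.93, 6.65 and 7.66 FPKM. These 4 genes were picked for lying on 1 side of shControl in both libraries, and their limma adjusted p ran from 0.418 for TRAF3 to 0.545 for OTULIN.

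Among kinases and adaptors, 8 of 20 tested genes were lower in both and 7 higher in both. RNF31, the catalytic subunit of the ligase that builds linear ubiquitin chains, was at 2.53 FPKM in shControl, 4.28 in shUSP16-1 and 3.72 in shUSP16-2. That is a log2 difference of 0.50 with an SE of 0.15, which did not pass (limma adjusted p = 0.295; voom adjusted p = 0.103). UBE2N, an enzyme that makes lysine-linked signalling chains, was at 9.17, 10.7 and 11.0 FPKM, and IKBKG, the regulatory subunit of the IkB kinase, at 2.60, 3.13 and 3.40. TRAF6, an adaptor of Toll-like and interleukin-1 receptors, went the other way, at 4.20, 3.52 and 3.36 FPKM.

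Of the receptors 4 of 12 passed the filter, where 11069 of the 19951 protein-coding genes did. TLR4 and TNFRSF1B had 0 reads in all 3 libraries, as did 17.0% of protein-coding genes. TNFRSF1A, the main TNF receptor, was the best expressed of those tested, at 13.4 FPKM for shControl, 15.1 for shUSP16-1 and 17.5 for shUSP16-2 (limma adjusted p = 0.431). The receptor subunit gene IL1RAP was at 1.80, 1.52 and 1.80 FPKM, and TNFRSF11A, which encodes RANK, at 1.79, 1.54 and 1.61.

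Of the other cytokine and chemokine targets, only CSF1 and CCL2 passed the filter. No read was found in any library for 4 of 20, where 17.0% of protein-coding genes had none. With these included, 8 had fewer than 10 reads in all. CSF1, a macrophage growth factor gene, was at 1.78 FPKM in shControl, 2.03 in shUSP16-1 and 2.13 in shUSP16-2. CCL2, a monocyte attractant gene, was at 1.25, 2.07 and 1.30 FPKM, so only shUSP16-1 stood apart. Neither passed limma (adjusted p = 0.723 and 0.684).

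Among the other cell survival and surface targets, 11 of 20 passed the filter, with 4 lower in both and 2 higher in both. IER3, an immediate early gene linked to cell survival, was at 6.59 FPKM in shControl, 4.15 in shUSP16-1 and 4.40 in shUSP16-2. Both libraries labelled shUSP16 lay together below shControl, at a log2 difference of -0.53 (SE 0.13, limma adjusted p = 0.280). CD83, a surface glycoprotein gene, was at 1.53, 0.612 and 1.13 FPKM, with the libraries labelled shUSP16 far apart; as their mean was 0.870 FPKM, it passed the filter only through shControl. TNFAIP8, at 8.22, 6.96 and 7.29 FPKM, and SOD2, the mitochondrial superoxide dismutase gene, at 2.26, 2.58 and 2.56 FPKM, differed less.

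**Figure D4:**
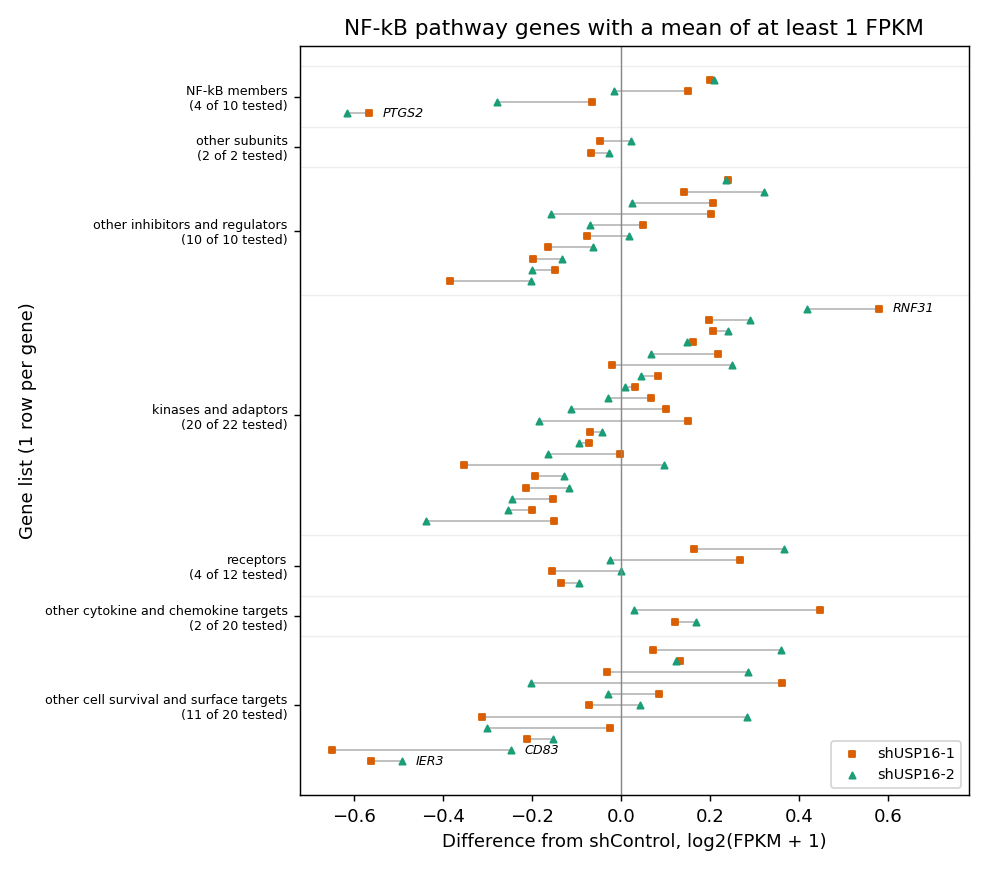
Difference from shControl on the log2(FPKM + 1) scale (x axis) for the NF-kB genes and 6 other pathway lists, limited to genes averaging 1 FPKM or more; each row is 1 gene, with a line joining shUSP16-1 and shUSP16-2, which share the shControl library. Genes whose difference exceeds 0.4 in size are named: PTGS2, RNF31, IER3 and CD83.

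The 5 protein-coding genes outside these lists whose pair of differences from shControl lay nearest to that of NFKBIA were RNF141, SLCO5A1, SYAP1, KIF7 and MAP1S. RNF141 was at 3.50 FPKM in shControl, 4.16 in shUSP16-1 and 4.20 in shUSP16-2, a distance of 0.00148 on the log2(FPKM + 1) scale. Over 3 libraries such likeness is common: 357 of 11009 genes lay within a distance of 0.05.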

How the data were processed

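RNA from 1 shControl and 2 shUSP16 libraries of HGC-27 cells was sequenced. The authors deposited 1 table of FPKM values per gene, with gene lengths, per the file headers. The labels and the file header name no aligner, counter or strand setting. Mouse genome builds are listed in the submitters' processing notes, yet all 58735 gene IDs and coordinates equal GENCODE 29 on human GRCh38. Whole reads were recovered from each FPKM value and gene length (tolerance 0.01 reads). Totals were those implied by the FPKM values or, as an alternative, sums of reads. limma 3.58.1 (R 4.3.3) was fitted with a mean-variance trend on log2(FPKM + 1), over genes averaging 1 FPKM or more. Its 1 residual degree of freedom comes from the shUSP16 libraries, and the lone control is assumed to vary like them. Each gene's variance is drawn toward a value pooled over all genes. That value weighed as 4.05 degrees of freedom in this fit, and 109 in voom over genes with at least 10 reads (authors' totals). P-values were adjusted by Benjamini-Hochberg over all tested genes. limma voom on recovered reads was an alternative; its fit over genes with at least 10 summed reads was chosen after seeing the data. Read ratios carry exact binomial 95% intervals. The limma and voom fits were tested on simulated reads. The 10 genes and the pathway lists were chosen with earlier results of these data known. Of each other pathway list, up to 4 tested genes on the same side of shControl in both libraries were named, by the size of the smaller difference; RELA, BIRC2 and the genes named at 0 reads were named besides, after their values were seen. The 5 genes most like NFKBIA were those at the smallest Euclidean distance in the 2 differences.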

Additional observations from a re-analysis of the deposited data

How the results depend on the processing

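limma called 0 genes on log2(FPKM + 1), with 2008 at an unadjusted p under 0.05. It called 13 over genes averaging 5 FPKM or more and 48 over protein-coding genes. Voom called 348 with the authors' totals and 557 with sums of reads, and over genes with at least 10 reads 903 and 752; the cause was not tested. A 2-fold distance from shControl in both libraries was reached by 79 genes, against 241 with a pseudocount of 0.1, 162 without a filter, 20 at 5 FPKM, 13 among protein-coding genes, 412 at 1.5-fold and 211 to 235 with 1 shUSP16 library left out. Of the NF-kB genes 2 were lower in both libraries, against 4 without a filter, 1 at 5 FPKM and 2 to 3 with 1 shUSP16 library left out (3 without shUSP16-1); 1 was higher in both, against 3 without a filter and 1 to 2 with 1 shUSP16 library left out (2 without shUSP16-2). NFKB1 changed sign with sums of reads, to -0.021 in limma, -0.029 in voom and -0.028 in voom over genes with at least 10 reads, and to -0.017 without shUSP16-1. The median of the tested NF-kB genes was -0.05, against 0.04 without shUSP16-2, -0.15 without shUSP16-1 and 0.02 at 5 FPKM. Planned fits with edgeR and DESeq2 were not run on the reads recovered from FPKM, where limma voom was the only method fitted. No paired analysis was possible because only the shUSP16 libraries carry numbers and there is 1 control. With 1 control library, none of these results has a check on the spread of shControl.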

Other observations

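CD14, a co-receptor for bacterial lipopolysaccharide upstream of NF-kB and here part of the leukocyte marker list, was chosen after its values were seen. It had 0 reads for shControl, 24 for shUSP16-1 and 19 for shUSP16-2, while PTPRC, CD3E and LYZ of the same list had no read in any library.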
